A study of Mus musculus with 8 samples.

Results

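The genes described here set the pace of the G1 phase of the cell cycle: the D-type cyclins Ccnd2 and Ccnd3, the cyclin-dependent kinases (CDKs) Cdk4, Cdk6 and Cdk2, and the CDK inhibitors Cdkn1a (p21), Cdkn1b (p27), Cdkn2a (p16INK4a and p19ARF), Cdkn2c (p18INK4c) and Cdkn2d (p19INK4d). They were taken by symbol, 10 genes of the 24538 listed in the RNA tables, and all 10 were found. Open chromatin was followed in a window of each gene plus 50 kb on either side. They were measured in bone marrow progenitors of CreER-positive mice, which had been put as LSK cells, the fraction that holds blood stem cells, onto OP9-DL1 stroma, a monolayer that displays a Notch ligand and drives T-lineage entry. The knockout (KO) group came from mice with floxed Tcf7 and floxed Lef1, which encode the transcription factors TCF1 and LEF1, and the wild-type (WT) group from CreER-positive mice labelled WT. Cultures received 4-OH tamoxifen from day 3 to day 5 to activate CreER, as the protocol describes for both genotypes, and Lin-CD8-CD4-CD44hiCD25- ckit+ cells, named DN1, were sorted on day 7. Each assay, RNA-seq and ATAC-seq (which marks open chromatin by transposase cuts), has 2 KO and 2 WT libraries. The labels used here name neither the promoter of CreER, nor the animals' age, nor whether libraries of 1 genotype came from separate animals or cultures, so p-values measure only the spread between these libraries, which may be technical.

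D-type cyclins are made in answer to growth signals and bind CDK4 and CDK6. The pair phosphorylates the retinoblastoma protein RB1 and its relatives, which releases E2F transcription factors, and cyclin E with CDK2 then carries the cell into DNA replication. Inhibitors of the INK4 class bind CDK4 and CDK6 and keep cyclin D away, whereas p21 and p27 of the CIP/KIP class bind whole cyclin-CDK complexes and block CDK2. In blood progenitors CDK6 is the more studied of the D-cyclin kinases, and in mice early thymocytes depend on cyclin D3 and CDK6 for their expansion.

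RNA levels are given as deposited TPM (transcripts per 1000000, scaled for transcript length, so that genes can be compared), and 13050 to 13134 genes in KO and 13188 to 13314 in WT reached 1 TPM. Relative depth, read from the ratio of deposited coverage to FPKM, was 2.64 and 2.63 in KO against 2.41 and 2.12 in WT. Tcf7 stood at 13.2 and 12.4 TPM in KO, against 518 and 509.6 TPM in WT. Lef1 was below 2 TPM in every library, so its level does not check its deletion. All 7 markers of the sorted progenitor (Kit, Ptprc, Cd44, Flt3, Notch1, Spn and Cd34) were detected in every library, and 6 of the 7 were called. Kit, Ptprc and Notch1 fell, with Kit at 156.8 TPM in both KO libraries against 251 and 238 TPM in WT, and Flt3, Spn and Cd34 rose, with Cd34 at 227 and 232 TPM in KO against 125 and 116 TPM in WT. The list summed to 1053 and 1097 TPM in KO and 1163 and 1176 TPM in WT. Of 12 stromal genes 8 of 10 tested rose, their sum being 1997 and 1686 TPM in KO and 817 and 842 TPM in WT. The largest parts of these sums were Dll1 (671 and 534 TPM in KO, 236 and 241 TPM in WT) and Cxcl12 (653 and 537 TPM in KO, 239 and 234 TPM in WT). Sparc and Pdgfrb were not called, with Pdgfrb at 109 and 97.3 TPM in KO and 103.0 and 103.7 TPM in WT. Dcn was at 0 in all libraries and Lum at 0 in all but KO replicate 2. All 8 mast cell and basophil genes rose, to sums of 326 and 344 TPM in KO against 61.7 and 57.9 TPM in WT. Of 8 neutrophil and monocyte genes 6 rose, and Csf1r and Lyz2 were not called. These 8 summed to 3065 and 2985 TPM in KO and 1479.7 and 1456 TPM in WT. Their largest part was Mpo, at 2256 and 2196 TPM in KO and 980 and 979 TPM in WT. All 7 T-lineage genes fell, with sums of 15.5 and 16.3 TPM in KO against 339 and 341 TPM in WT. The largest part of the WT sums was Il2ra, at 136 and 133 TPM, against 0.658 and 0.393 TPM in KO. Il2ra encodes CD25, and both genotypes were sorted as CD25-. Cd3e was at 0 in both KO libraries and Cd3d at 0 in KO replicate 1. Of 5 erythroid genes 1 of 3 tested rose, with overlapping sums of 166 and 154 TPM in KO and 201 and 111 TPM in WT, and Hba-a1 was at 0 in every library. Whether the cell mix differed, and what part it would have in the results below, was not tested.

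The comparison asked which parts of the G1 machinery differed between the KO and WT DN1 sorts. Ccnd2 and Cdk4 rose in KO, Cdk6, Cdkn1b and Cdkn2d fell, and Ccnd3, Cdk2, Cdkn1a and Cdkn2c did not pass the test. Calls come from limma on log2(TPM + 1) over 13228 genes with a mean of at least 1 TPM, at a Benjamini-Hochberg adjusted p under 0.05. Of the 9 members tested, 5 were called, where 39.8% of all tested genes were. Of these, 2 were called higher, where 25.2% of all tested genes were, and 3 lower, where 14.7% of all tested genes were. The median log2 change of these 9 was 0.16, against 0.09 for all tested genes. In bulk RNA, fewer cells of a type and less RNA per cell cannot be told apart. In 6 of the 9 both KO libraries lay above both WT libraries, and in 3 both lay below, so that groups overlapped in no tested member; among all tested genes 44.4% lay above and 29.0% below in this way.

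**Figure D1:**
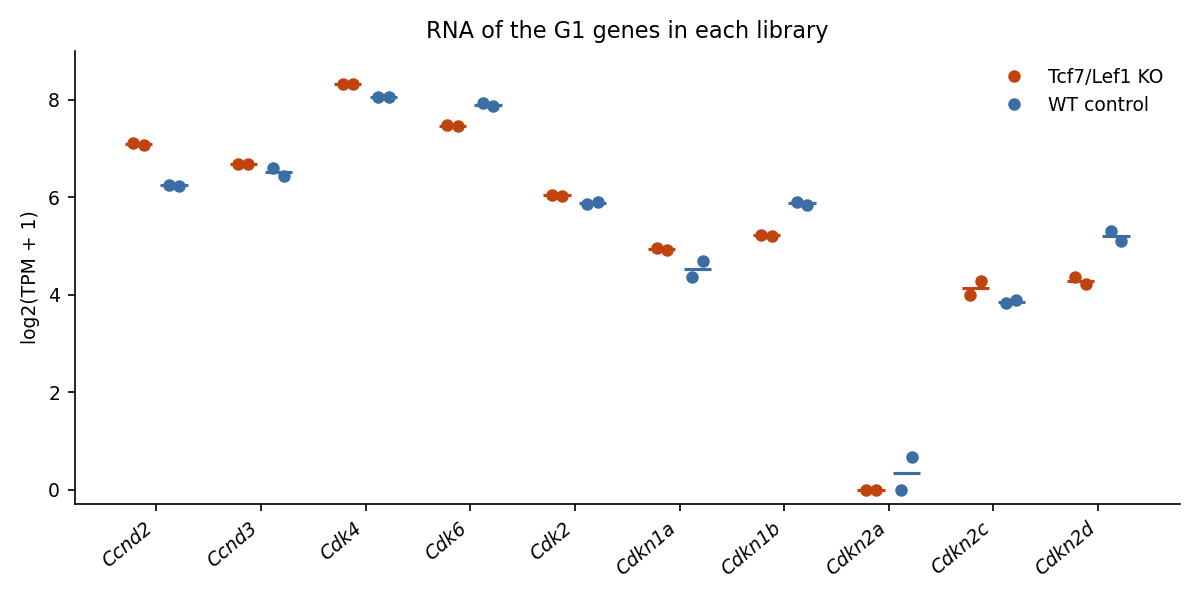
RNA level of each G1 gene as log2(TPM + 1) in the 2 KO (left, red) and 2 WT (right, blue) libraries, with a line at each group's mean. Cdk4 and Cdk6 are the highest in both genotypes, Cdkn2a lies at or near 0, and the KO points of Cdk6, Cdkn1b and Cdkn2d lie below the WT points.

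Among the D-type cyclins, Ccnd2 (chromosome 6, 127125709 to 127151048, mm10) showed the largest rise of the set. It stood at 137 and 133 TPM in KO, against 75.2 and 74.0 TPM in WT. Both KO libraries were well above both WT libraries. The means were 135 ± 2.7 TPM in KO and 74.6 ± 0.84 TPM in WT (SD, n = 2 each), a 1.805-fold difference (log2 change 0.84, SE 0.048, limma adjusted p = 0.000432).

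Ccnd3 (chromosome 17, 47505051 to 47599688), the cyclin that early thymocytes depend on in mice, had 102 and 101 TPM in KO, against 95.6 and 85.9 TPM in WT. The KO libraries lay just above WT, and the change did not pass the test (log2 change 0.16, 95% interval −0.0057 to 0.32, limma adjusted p = 0.109). Ccnd1, a D-type cyclin outside the set, was scarcer than both, at 42.0 and 45.6 TPM in KO against 19.0 and 17.1 TPM in WT, and rose (log2 change 1.23, SE 0.093, limma adjusted p = 0.00079). The 3 genes together summed to 280.1 and 279 TPM in KO and 189.8 and 177 TPM in WT. Ccnd2 made up 57.3% and 56.8% of the RNA of Ccnd2 and Ccnd3 in KO, against 44.0% and 46.3% in WT, so Ccnd2 was the more abundant of the 2 in KO and Ccnd3 in WT. For such shares the exact permutation test with 2 libraries against 2 cannot go below p = 0.333, and none is given a p.

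The D-cyclin kinases moved apart. Cdk4 (chromosome 10, 127063603 to 127067282) was the most abundant member, at 319.7 and 317 TPM in KO against 265 and 264.7 TPM in WT. Both pairs were tight, and the KO pair lay above the WT pair. The rise was 1.20-fold (log2 change 0.26, SE 0.035, limma adjusted p = 0.00353). Its call was lost after quantile normalization (log2 change 0.10, adjusted p = 0.0614) and with limma run without an intensity trend (adjusted p = 0.056), its adjusted p ranging from 0.00285 to 0.0614 over all alternatives.

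Cdk6 (chromosome 5, 3343893 to 3531005) stood at 177 and 175 TPM in KO, against 242 and 231 TPM in WT. Both KO libraries were lower than both WT libraries. The means were 176 ± 0.96 TPM in KO and 236 ± 7.5 TPM in WT, 1.34-fold higher in WT (log2 change −0.42, SE 0.042, limma adjusted p = 0.00165). The 2 kinases together summed to 496 and 492 TPM in KO and 507 and 496 TPM in WT, nearly the same in both. Cdk6 made up 35.6% of that sum in each KO library, against 47.7% and 46.6% in WT.

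Cdk2 (chromosome 10, 128697939 to 128705051), the kinase that acts with cyclins E and A, had 64.8 and 64.1 TPM in KO against 56.9 and 58.7 TPM in WT. The KO pair was slightly higher, and the change did not pass (log2 change 0.16, 95% interval 0.014 to 0.30, limma adjusted p = 0.0782).

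The bases before the starts of Cdk4 and Cdk6 are shown because these genes moved in opposite directions. They are RefSeq sequence of build GRCm38.p6, which is mm10, each read along the gene from 250 bases before the start to the base before it. Cdk4 covers chr10:127063285-127063534 on the plus strand and Cdk6 chr5:3343643-3343892 on the plus strand. Capitals mark matches to 4 motifs searched on both strands: CTTTGNT for TCF/LEF, TTTNNCGC for E2F, the E-box CACGTG, which MYC binds, and CCAAT.
Cdk4: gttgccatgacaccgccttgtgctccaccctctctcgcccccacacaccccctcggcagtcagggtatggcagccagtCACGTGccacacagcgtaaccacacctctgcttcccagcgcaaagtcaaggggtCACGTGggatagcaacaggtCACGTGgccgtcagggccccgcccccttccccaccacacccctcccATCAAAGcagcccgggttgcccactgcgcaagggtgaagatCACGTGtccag
Cdk6: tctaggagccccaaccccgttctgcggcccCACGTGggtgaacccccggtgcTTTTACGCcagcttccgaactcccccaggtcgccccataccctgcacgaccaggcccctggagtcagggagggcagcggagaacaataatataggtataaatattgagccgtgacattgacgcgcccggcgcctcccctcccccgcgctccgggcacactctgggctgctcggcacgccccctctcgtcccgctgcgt
Cdk4 holds 4 E-boxes, at 172, 118, 98 and 11 bases before the start, and a TCF/LEF match on the other strand at 52. Cdk6 holds 1 E-box at 220 bases and 1 E2F match at 198 bases. Over all 32851 promoter windows of this length, 16.0% hold the TCF/LEF letters, 4.28% the E2F letters, 6.02% an E-box and 33.8% CCAAT. Of the 13 windows found for 9 of the 10 members, 2, 4, 2 and 4 hold them, in that order. No match overlaps another, and a match is only a run of letters.

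**Figure D2:**
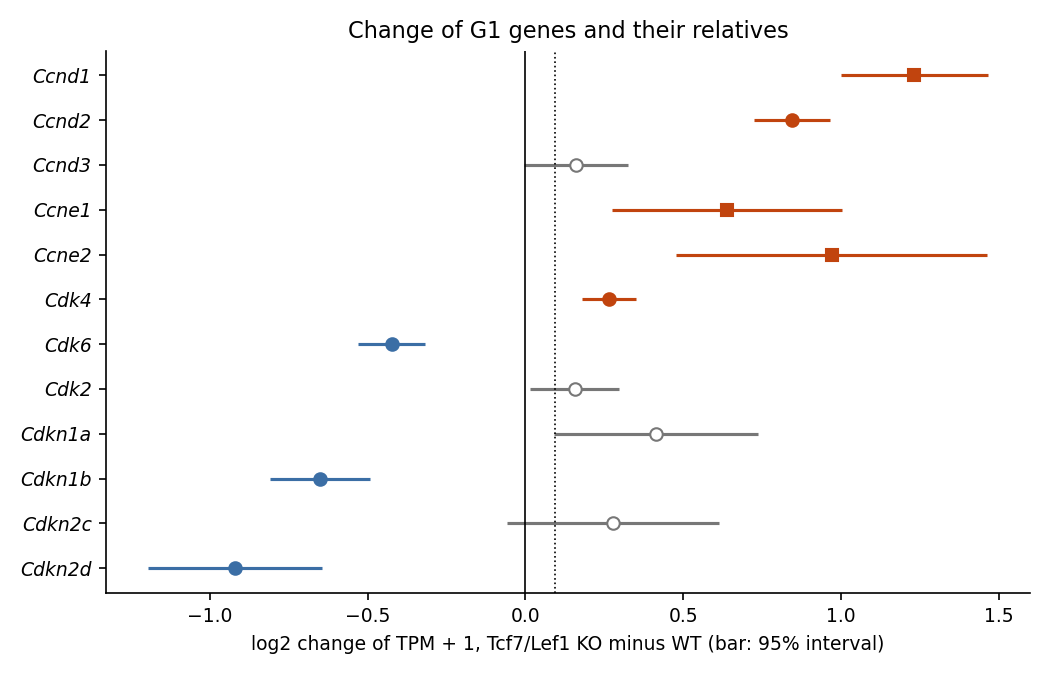
Change between KO and WT on the log2(TPM + 1) scale with its 95% interval, for the 9 tested G1 genes (circles) and the cyclins Ccnd1, Ccne1 and Ccne2 (squares); red was called higher in KO, blue lower, open grey not called, and the dotted line is the median of all tested genes at 0.09. The D- and E-type cyclins and Cdk4 lie right of 0, and Cdk6, Cdkn1b and Cdkn2d lie left of it.

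In the CIP/KIP class, the inhibitors of cyclin-CDK complexes, Cdkn1b fell and Cdkn1a did not pass. Cdkn1b (chromosome 6, 134920401 to 134925525), which encodes p27, the inhibitor of resting cells, had 36.5 and 35.8 TPM in KO, against 58.5 and 56.4 TPM in WT. The pairs did not overlap. The means were 36.2 ± 0.47 TPM in KO and 57.4 ± 1.5 TPM in WT, 1.59-fold higher in WT (log2 change −0.65, SE 0.063, limma adjusted p = 0.00149).

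Cdkn1a (chromosome 17, 29090979 to 29100722), which encodes p21, the inhibitor that p53 induces, had 30.1 and 29.3 TPM in KO against 19.5 and 24.9 TPM in WT. The KO libraries were close together and above WT, whose libraries differed from each other by more. It missed the threshold narrowly (log2 change 0.41, 95% interval 0.092 to 0.74, limma adjusted p = 0.0513), and passed when genes under a mean of 5 TPM were left out (0.0439) and without WT replicate 2 (log2 change 0.58, adjusted p = 0.0313; 0.0313 to 0.235 over all alternatives). Its level rests on the column used: its deposited coverage was 0.291 to 0.292 of what its FPKM and the library's usual ratio give, where Ccnd2, Cdk4, Cdk6, Cdkn1b and Cdkn2d were at 0.9998 to 0.9999. Coverage scaled by that ratio was 4.15 and 4.08 in KO and 2.74 and 3.52 in WT, so its place among the other genes by TPM is uncertain.

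Together these 2 genes summed to 66.6 and 65.1 TPM in KO, against 78.0 and 81.2 TPM in WT. Cdkn1a supplied 45.2% and 45.0% of that sum in KO and 25.0% and 30.6% in WT. This sum and these shares rest on TPM, by which the level of Cdkn1a is uncertain. Scaled coverage of Cdkn1b was 17.3 and 17.1 in KO and 28.2 and 27.3 in WT, far above that of Cdkn1a in every library.

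In the INK4 class, the inhibitors specific to CDK4 and CDK6, Cdkn2d showed the largest fall of all members. Cdkn2d (chromosome 9, 21288464 to 21291209) had 19.5 and 17.5 TPM in KO, against 38.7 and 33.3 TPM in WT. Both KO libraries were far below both WT libraries. The means were 18.5 ± 1.4 TPM in KO and 36.0 ± 3.8 TPM in WT, 1.94-fold higher in WT (log2 change −0.92, SE 0.11, limma adjusted p = 0.00266). The call was lost when all 24538 genes entered the fit, however low (adjusted p = 0.0546; 0.00202 to 0.0546 over all alternatives).

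Cdkn2c (chromosome 4, 109660876 to 109666756), whose product p18 restrains blood stem cell division in mice, had 14.9 and 18.4 TPM in KO against 13.1 and 13.8 TPM in WT. KO replicate 2 stood apart from the other 3 libraries, and the change did not pass (log2 change 0.28, 95% interval −0.058 to 0.61, limma adjusted p = 0.154). Cdkn2a (chromosome 4, 89274473 to 89294619) encodes p16INK4a and, from a separate first exon and in another reading frame, p19ARF, which stabilises p53; a value per gene cannot separate them. It was listed at 0 in both KO libraries and WT replicate 1 and at 0.591 TPM in WT replicate 2, and was too low to be tested. The INK4 genes summed to 34.4 and 36.0 TPM in KO and 51.9 and 47.7 TPM in WT. Cdkn2d supplied 56.7% and 48.8% of the Cdkn2c and Cdkn2d sum in KO, against 74.7% and 70.7% in WT.

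The same bases are shown for the 2 inhibitor genes that fell, Cdkn1b (chr6:134920151-134920400, plus strand) and Cdkn2d (chr9:21291210-21291459, minus strand), with capitals for the same motifs.
Cdkn1b: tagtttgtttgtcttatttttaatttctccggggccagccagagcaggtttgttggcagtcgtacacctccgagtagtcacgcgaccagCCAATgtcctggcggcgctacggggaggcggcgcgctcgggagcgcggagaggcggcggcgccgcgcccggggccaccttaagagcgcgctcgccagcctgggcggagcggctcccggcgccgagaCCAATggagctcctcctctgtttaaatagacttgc
Cdkn2d: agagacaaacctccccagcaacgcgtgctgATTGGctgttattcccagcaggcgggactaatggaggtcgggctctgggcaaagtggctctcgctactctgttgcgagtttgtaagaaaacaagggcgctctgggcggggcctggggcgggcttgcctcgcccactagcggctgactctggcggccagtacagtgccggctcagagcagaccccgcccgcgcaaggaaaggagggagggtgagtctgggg
Both hold CCAAT matches, Cdkn1b at 161 and 35 bases before the start and Cdkn2d on the other strand at 220 bases, and neither window holds the TCF/LEF, E2F or E-box letters.

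By level, the order in KO was Cdk4, Cdk6, Ccnd2, Ccnd3, Cdk2, Cdkn1b, Cdkn1a, Cdkn2d, Cdkn2c and Cdkn2a, and among neighbours only Cdkn2d and Cdkn2c overlapped. In WT it was Cdk4, Cdk6, Ccnd3, Ccnd2, Cdk2, Cdkn1b, Cdkn2d, Cdkn1a, Cdkn2c and Cdkn2a, and only Cdk2 and Cdkn1b overlapped. The place of Cdkn1a in both orders, and its part in the inhibitor sum that follows, rest on TPM. By scaled coverage it was below Cdkn2c, which had 5.79 and 7.24 in KO and 5.52 and 5.60 in WT. All 5 inhibitor genes together amounted to 18.0% and 18.2% of the summed RNA of Cdk2, Cdk4 and Cdk6 in KO, against 23.0% and 23.3% in WT. RNA sums do not give protein ratios.

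**Figure D3:**
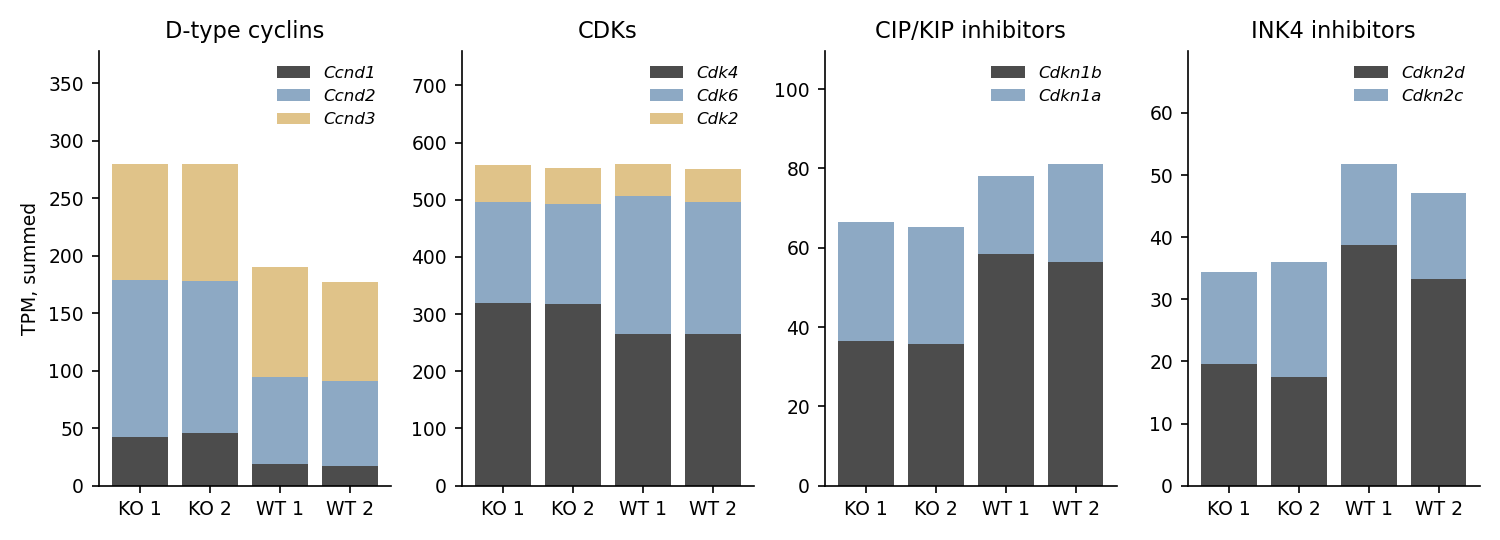
TPM of each class stacked by gene in the 2 KO and 2 WT libraries. The D-type cyclin bars reach 280.1 and 279 TPM in KO and 189.8 and 177 TPM in WT, the CDK bars are of nearly equal height with less Cdk6 in KO, and both inhibitor classes are shorter in KO with a smaller share of Cdkn1b and Cdkn2d.

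By closeness of the library values, the genes nearest to Ccnd2 among 8672 genes with a mean of at least 10 TPM included Pdia3 and H2afz, at Euclidean distances of 0.025 and 0.038 between mean-centred log2(TPM + 1) values over the 4 libraries. Pdia3 had 455 and 442 TPM in KO and 249.97 and 252 TPM in WT. The nearest to Cdkn2d included Sertad3 and Cd244, at 0.078 and 0.082, with Cd244 at 31.8 and 30.2 TPM in KO and 62.6 and 57.2 TPM in WT.

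The partners that act with these genes were followed in lists chosen by function. That choice was made with earlier results of these data known, so the counts below are description only. Of 14 partners of the G1 to S transition, 12 were tested, 7 were called higher and 0 lower, and 5 were not called, where 25.2% of all tested genes were higher and 14.7% lower. Their median log2 change was 0.37, against 0.09 for all genes. Ccnd1 apart, the largest rises were of the cyclin E genes, the partners of CDK2. Ccne2 had 20.4 and 19.8 TPM in KO against 12.1 and 7.90 TPM in WT (log2 change 0.97, SE 0.20, limma adjusted p = 0.0142), and Ccne1 had 12.9 and 11.6 TPM in KO against 6.85 and 8.17 TPM in WT (0.64, SE 0.15, adjusted p = 0.0204). In both genes the KO pair lay above the WT pair. The Ccne2 call was lost without KO replicate 1 or 2 (adjusted p = 0.072 and 0.0623; 0.0115 to 0.143 over all alternatives) and the Ccne1 call without any 1 of the 4 libraries (0.0511 to 0.101; 0.0178 to 0.103 over all). The other risen partners, looked up afterwards, included Skp2 and Cks1b, which direct p27 to degradation, with log2 changes of 0.59 and 0.60. Cdkn1c (p57) and Cdkn2b (p15) were under 1.5 TPM in every library and untested. The count of 7 was 4 without KO replicate 2.

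Of 13 pocket protein and E2F genes, all tested, 8 rose and 2 fell, and the other 3 were not called; the 2 that fell are close to the 14.7% of all tested genes that did, and 25.2% of all rose. The median log2 change was 0.45. The largest rises were of E2f7, Tfdp1 and E2f8. E2f7, a repressing E2F, had 13.01 and 14.6 TPM in KO and 6.95 and 6.62 TPM in WT. Tfdp1, a partner with which most E2F proteins bind DNA, had 216 and 221 TPM in KO and 127 and 128 TPM in WT. E2f8 had 68.0 and 64.3 TPM in KO and 39.5 and 44.1 TPM in WT. E2f2 and Tfdp2 fell, with log2 changes of −0.62 and −0.48. Of the 3 pocket protein genes, also looked up afterwards, Rb1 and Rbl2 did not pass and had log2 changes of −0.10 and −0.20, whereas Rbl1 rose by 0.42. The count of 8 was 5 without WT replicate 2, and the count of 2 was 0 without WT replicate 1 and 1 without WT replicate 2 or KO replicate 1.

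Of 20 E2F target genes of S-phase entry, 20 rose, with a median log2 change of 0.60, against 25.2% of all tested genes called higher. Among the largest rises were those of Gins2 (76.4 and 75.8 TPM in KO, 37.2 and 33.5 TPM in WT), a part of the replication helicase, and Tyms (35.5 and 34.2 TPM in KO, 21.0 and 17.8 TPM in WT), which makes thymidylate. In every one of the 20, both KO libraries lay above both WT libraries, as they did in 44.4% of all tested genes. The count of 20 called higher was 14 without the filter on low values, 17 without an intensity trend and 19 after quantile normalization.

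Of 12 genes known to regulate the inhibitor genes, 1 rose and 5 fell, and 6 were not called, where 25.2% of all tested genes rose and 14.7% fell. The median log2 change of the list was −0.19. Klf4, which activates Cdkn1a, showed the largest fall, to 7.21 and 7.49 TPM in KO against 49.5 and 46.7 TPM in WT (log2 change −2.55, SE 0.093, limma adjusted p = 0.000171). Cbx7, a Polycomb protein that represses Cdkn2a, had 7.23 and 6.22 TPM in KO and 13.8 and 12.5 TPM in WT, and Gfi1, a repressor of Cdkn1a, had 14.5 and 10.5 TPM in KO and 18.5 and 18.6 TPM in WT. The other falls, looked up afterwards, were of Foxo3, an activator of Cdkn1b, and Zbtb17, with log2 changes of −0.50 and −0.35. Trp53, which encodes p53, had 166 and 149 TPM in KO and 130.3 and 136 TPM in WT (log2 change 0.24, adjusted p = 0.037), a call lost with quantile normalization, median-ratio scaling, no filter, no intensity trend, a replicate block, and without WT replicate 1 or 2. The count of 5 lower was 2 without WT replicate 1 and 3 without WT replicate 2 or KO replicate 2.

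ATAC-seq was deposited as 1 peak list per library, with 109380 and 111007 peaks in KO and 103009 and 105227 in WT. Read counts are not part of these lists, so their depth is unknown, and regions are described without a test. Merging the lists gave 134830 regions, of which 219 lay in the windows of the 10 genes. Of these 219, 137 had a peak in all 4 lists, 12 in both KO lists and no WT list (KO alone) and 11 in both WT lists and no KO list (WT alone). These are 5.48% and 5.02% of the regions, close to the 6.63% and 4.79% found over all regions. Fold enrichment is the authors' value for the strongest peak of a library in a region, a ratio over local background.

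Over most gene starts the fold enrichment overlapped between KO and WT, which without a test does not show that openness was equal. Of 14 starts examined (13 from RefSeq, and for Ccnd2 that of the RNA tables), 12 lay under a region present in all 4 lists, and in 10 of these the KO and WT lists overlapped in fold enrichment. Of all 79684 regions in all 4 lists, 36857 overlapped in this way. The overlapping starts included those of Ccnd2, Cdk4, Cdk6, Cdk2, Cdkn1b and Cdkn2d, and so of all 5 called genes. Over the Cdkn2d start, for example, fold enrichment was 9.19 and 9.49 in KO and 9.88 and 9.40 in WT, and over the Cdkn1b start 10.4 and 9.35 in KO and 10.5 and 9.90 in WT. Beside 2 of these starts, a shared region that reached within 1 kb without covering the start had both KO lists lower. For Cdk6 it was centred 487 bases past the start (4.45 and 4.52 in KO, 5.50 and 5.67 in WT). For Ccnd2 it was centred 774 bases before the start (3.98 and 4.34 in KO, 4.73 and 5.26 in WT). Other such shared regions, beside Cdk6 and Cdkn2c, overlapped. At the remaining 2 of the 12 starts both KO lists were lower, an ordering that 24.9% of all regions shared by the 4 lists show, while 28.9% show both KO lists higher.

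The first of these was the upstream start of Ccnd3 (region on chromosome 17, 47504876 to 47505260), with 3.86 and 3.90 in KO, against 5.91 and 6.72 in WT, a ratio of 0.61. The second Ccnd3 start, inside the gene at 47593467, had 8.27 and 8.75 in KO against 9.03 and 8.31 in WT, which overlapped. RNA per gene cannot separate transcripts from the 2 starts. The other was the first start of Cdkn2a, that of the p19ARF transcript (chromosome 4, 89294547 to 89295395), with 10.3 and 10.9 in KO against 12.4 and 13.3 in WT. The p16INK4a start, at 89282192, had 8.47 and 5.50 in KO and 5.04 and 6.30 in WT. Both Cdkn2a starts thus lay under peaks in all 4 lists while its RNA was listed at 0 in 3 of 4 RNA libraries. For Cdkn1a no list had a peak within 1 kb of the upstream start, and the downstream start at 29093769 had 6.13 and 6.71 in KO and 5.69 and 6.92 in WT.

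The sequences before these 2 starts with lower KO peaks are shown with the same motifs in capitals, Ccnd3 from chr17:47504801-47505050 on the plus strand and the p19ARF start of Cdkn2a from chr4:89294620-89294869 on the minus strand.
Ccnd3: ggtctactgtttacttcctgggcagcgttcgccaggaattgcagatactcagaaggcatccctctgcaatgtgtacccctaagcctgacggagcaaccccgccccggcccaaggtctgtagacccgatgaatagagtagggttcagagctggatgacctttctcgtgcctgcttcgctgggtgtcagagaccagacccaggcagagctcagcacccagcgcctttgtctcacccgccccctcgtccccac
Cdkn2a: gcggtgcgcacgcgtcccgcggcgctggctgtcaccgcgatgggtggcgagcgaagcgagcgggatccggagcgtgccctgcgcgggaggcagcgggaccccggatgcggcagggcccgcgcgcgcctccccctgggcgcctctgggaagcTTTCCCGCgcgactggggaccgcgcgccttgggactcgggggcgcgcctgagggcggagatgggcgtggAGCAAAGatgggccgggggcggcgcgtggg
The Ccnd3 window holds none of the 4 motifs. The Cdkn2a window holds an E2F match at 99 bases before the start and, on the other strand, a TCF/LEF match at 30.

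**Figure D4:**
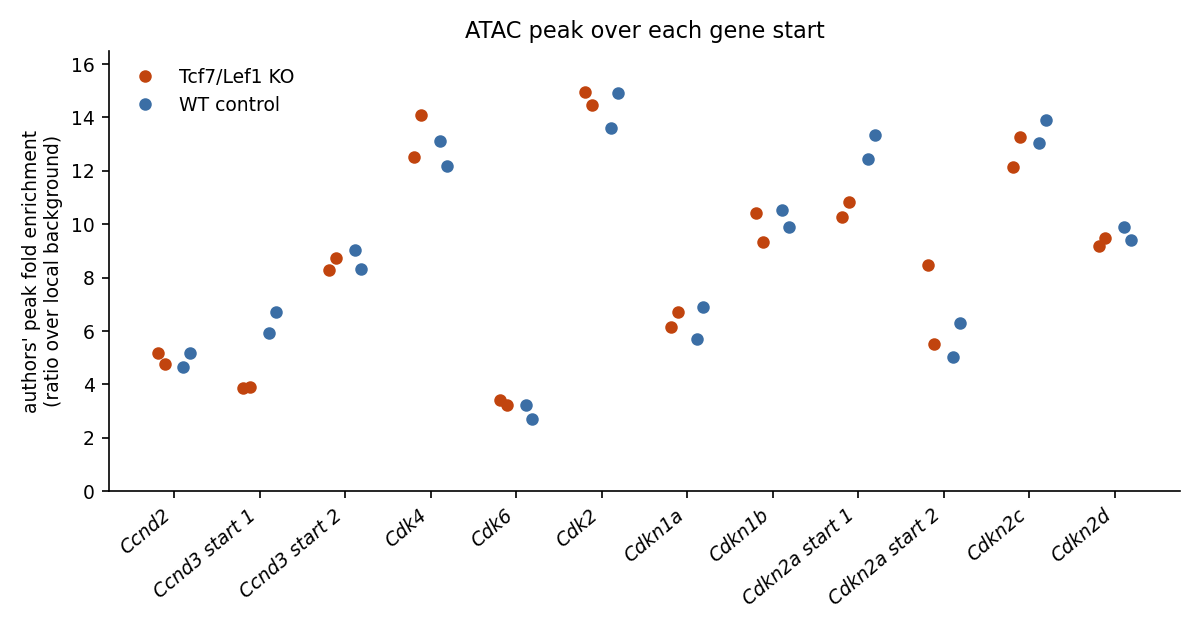
Authors' fold enrichment of the ATAC peak over each of the 12 gene starts covered in all 4 lists, in the 2 KO (left, red) and 2 WT (right, blue) lists; for Cdkn1a the downstream start is shown. KO and WT points overlap at 10 starts, and both KO points are lower at the first starts of Ccnd3 and Cdkn2a.

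Over the whole windows, starts included, 35 of the 137 regions shared by all 4 lists had both KO lists above both WT lists and 35 both below. These are 25.5% each, beside 28.9% and 24.9% of all shared regions. The median ratio of KO to WT fold enrichment was 1.005 in the windows and 1.01 over all shared regions. The regions named from these were singled out after their values were seen.

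The most unequal region lay inside Cdk6, 77.12 kb from its start (chromosome 5, 3420856 to 3421164). Fold enrichment there was 5.67 and 7.48 in KO, against 15.9 and 16.97 in WT, a ratio of 0.40, and the −log10 q of its peaks was 10.4 and 16.1 in KO and 78.0 and 80.1 in WT. Cdk6 RNA fell as well, and whether the region acts on Cdk6 was not tested. In the Cdk6 window, 7 of 26 shared regions were lower and 3 higher in both KO lists. Of all shared regions, 24.9% were lower and 28.9% higher in this way, and the counts for the other windows below stand beside the same shares.

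Inside Ccnd3, a region 21.83 kb from the first start (chromosome 17, 47526720 to 47527043) had 4.67 and 5.17 in KO against 7.06 and 7.19 in WT, and a region at 62.44 kb (47567315 to 47567675) had 14.7 and 15.7 in KO against 9.75 and 12.2 in WT. Of the 24 shared regions in its window, 7 were lower and 5 higher. Around Cdkn1a, 4 of 13 were lower and 5 higher. The region at −8.83 kb (chromosome 17, 29081958 to 29082349), nearest to the start of the neighbouring non-coding gene Trp53cor1, had 10.8 and 11.2 in KO against 15.8 and 15.2 in WT. The region at −11.89 kb (29078898 to 29079271), 42 bases from the Trp53cor1 start, had 10.4 and 9.54 in KO and 7.48 and 7.01 in WT.

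Around Cdkn1b, whose RNA fell, the most unequal region was higher in KO. It lay at −43.43 kb (chromosome 6, 134876771 to 134877163), nearest to the start of Gpr19, with 12.8 and 13.2 in KO and 8.67 and 9.19 in WT. Around Cdkn2d, a region 4.28 kb past the start (chromosome 9, 21286752 to 21287105), nearest to the start of Kri1, had 4.24 and 3.62 in KO against 5.77 and 5.92 in WT. A region at 49.67 kb, nearest to the start of Keap1, was higher in both KO lists, with a ratio of 1.40, and of the 14 shared regions in this window 3 were higher and 3 lower. Around Cdk2, 7 of 11 shared regions were higher and 2 lower in KO, and around Ccnd2, 4 were higher and 5 lower of 14.

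The 23 regions found in 1 genotype alone were all weak. The lower of their replicates' −log10 q was 4.31 to 16.7, against up to 193.5 among such regions of the whole genome (median 7.84 in the windows, 7.95 over all). Only 8 of the 23 had the start of the window's own gene as the nearest. The strongest was KO alone inside Ccnd3, at 4.19 kb (chromosome 17, 47509152 to 47509322), with −log10 q of 17.4 and 16.7. Cdkn2c, whose RNA did not pass, had a KO-alone region 0.69 kb past its start (chromosome 4, 109665944 to 109666194), with 7.84 and 13.4. Ccnd2 had 1 of each kind upstream, KO alone at −19.83 kb (chromosome 6, 127170720 to 127171029, with 16.4 and 8.85) and WT alone at −26.63 kb (127177574 to 127177786, with 11.7 and 10.04). Close to the WT-alone region was a region in all 4 lists (127177990 to 127178389). Cdkn1a had 2 WT-alone regions, at −39.75 and 27.33 kb (chromosome 17, 29051015 to 29051449 and 29118175 to 29118444), both nearest to other genes' starts, and none KO alone. Cdkn1b and Cdkn2a had none of either kind.

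**Figure D5:**
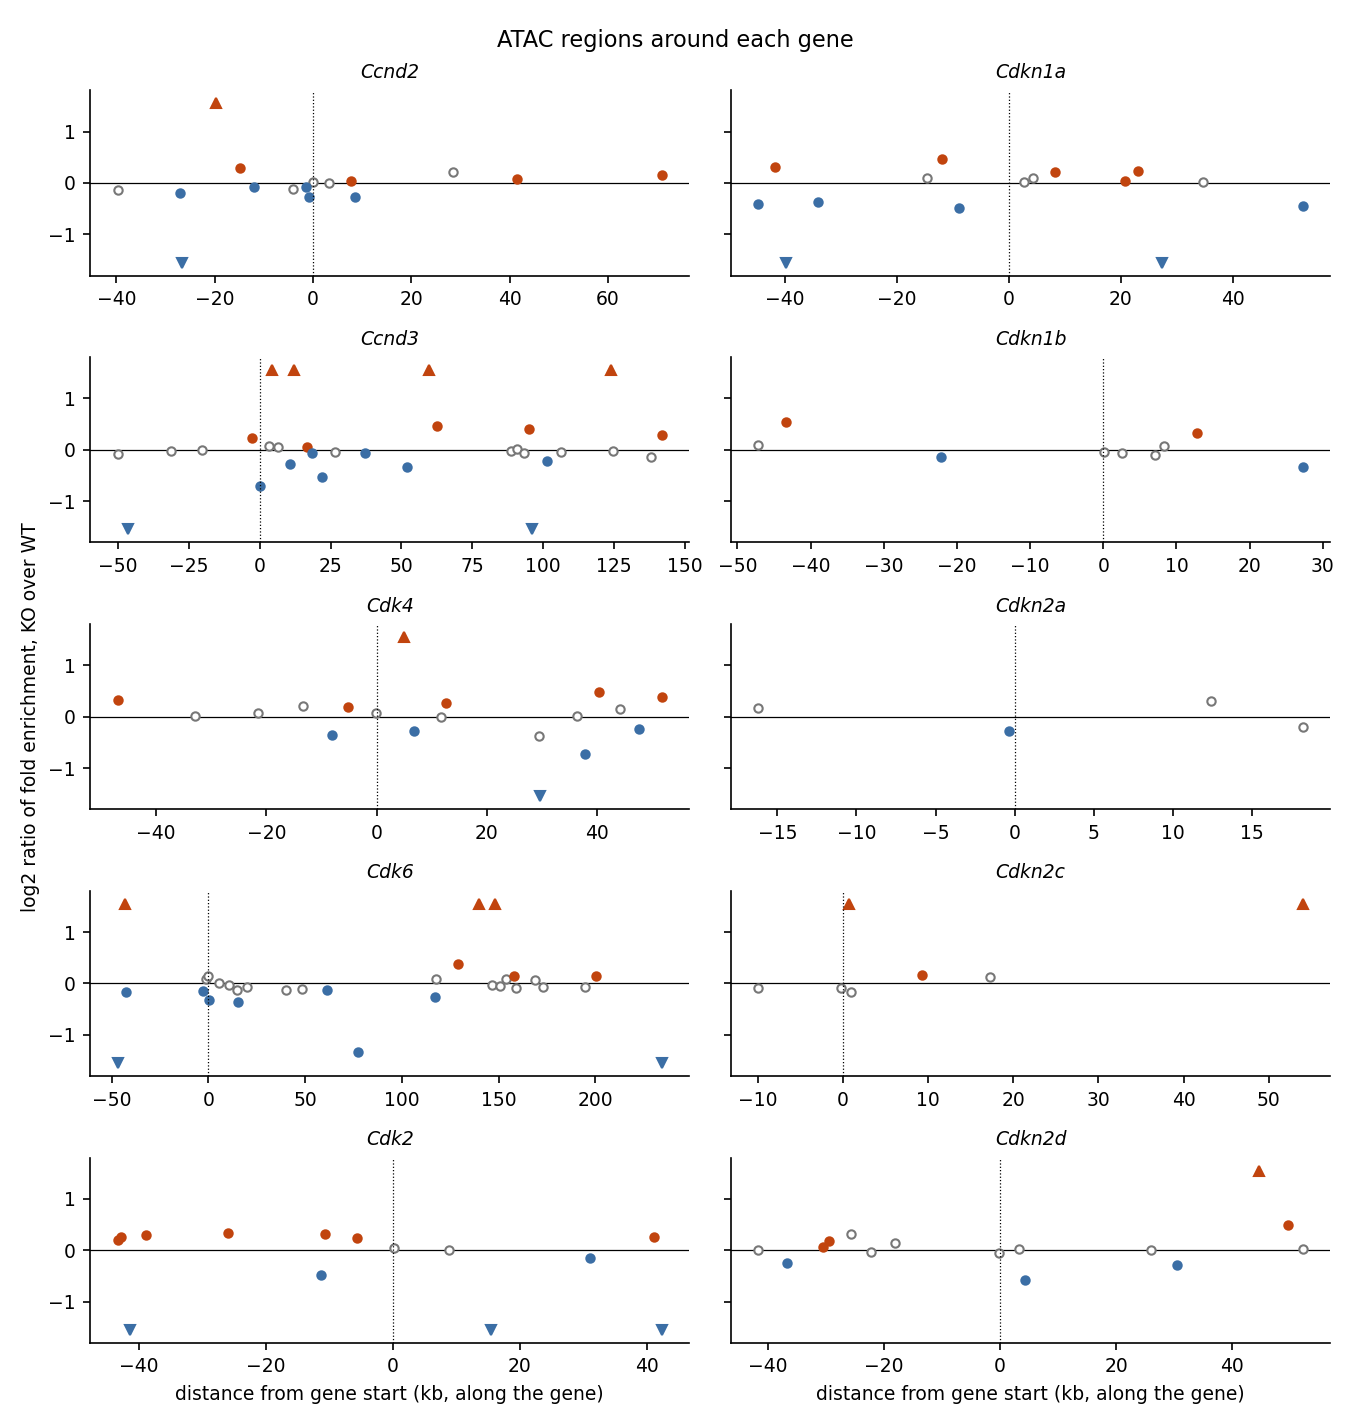
ATAC regions in each gene's window by distance from the gene start in kb, along the gene; circles are regions in all 4 lists at the log2 ratio of mean fold enrichment, KO over WT, filled red where both KO lists were above both WT lists, blue where both were below, and open where they overlapped. Red triangles at the top are the 12 KO-alone and blue triangles at the bottom the 11 WT-alone regions; the lowest circle is the Cdk6 region at 77.12 kb with a ratio of 0.40.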

How the data were processed

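Per the submitters' processing notes, HISAT2, StringTie, Bowtie2 and MACS2 were used with build mm10; the notes as used here give neither their versions nor which step each ran. The deposited TPM (main measure), FPKM and coverage signal (alternatives) are used as the authors gave them, per the file headers; a gene with several entries was summed. Whether counting used strand is not known here, and read counts were not used, so no counting error per gene is given; depth is known only relatively. The deposited peak lists, 1 per library, give a fold enrichment (ratio) and −log10 p and −log10 q per peak, as the authors' peak caller wrote them; its threshold is not known here.

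Fits used limma 3.58.1 in R 4.3.3 on log2(TPM + 1), genotype as the only term, eBayes with an intensity trend, genes with a mean of at least 1 TPM; fold changes on this scale understate changes of low genes. The code was tested on simulated data. ATAC peaks of the 4 lists that overlapped by 1 base were merged into regions, the mitochondrial chromosome left out. Promoters came from RefSeq (GRCm38.p6). Groups and replicate numbers came from the sample titles. Named were all members, Tcf7 and Lef1, the 3 largest called rises and falls per list, close relatives, start-site peaks and up to 3 single-genotype regions per gene. A few genes that this rule names are not reported here. The members and lists were chosen with earlier results of these data known. Alternatives were another pseudocount, filters, scalings, FPKM, a replicate term, no trend, each library left out, stricter peaks, another overlap and a narrower window; scaled coverage was added after seeing the data.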

Additional observations from a re-analysis of the deposited data

How the results depend on the processing

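Every called member kept its direction under all 13 RNA alternatives, and Ccnd2, Cdk6 and Cdkn1b kept their calls in all of them. The members called were 3 lower and 2 higher; those higher were 1 after quantile normalization and 1 without an intensity trend. Over all genes 1940 were lower and 3331 higher; without the filter on low values these were 1026 and 1357, and leaving out 1 library in turn gave 1088 to 1450 lower and 2005 to 2242 higher. The share of calls that were lower was 36.8% as deposited, 46.8% with quantile-normalized values and 48.1% with median-ratio scaling, and the median change of all genes was 0.09, 0.03 and 0.01. Without the filter on low values, 2 G1 to S partners were higher, 3 pocket protein and E2F genes higher and 1 lower, and 3 regulators lower and 0 higher; the 1 higher regulator was also 0 after quantile normalization, median-ratio scaling, the replicate block and no intensity trend. Scaled coverage gave 1 lower pocket protein or E2F gene. Leaving out 1 library gave 4 to 5 partners higher, 5 to 7 pocket protein and E2F genes higher and 0 to 2 lower, and 2 to 4 regulators lower and 0 to 1 higher. The causes of these shifts were not tested. Deviations of same-numbered libraries were hardly correlated (0.0043), which does not tell whether the libraries were paired. With the replicate block, 1798 genes were lower and 3072 higher and no member's call changed. With peaks of −log10 q of at least 10, 6 KO-alone and 7 WT-alone regions were found in the windows, and with windows of 10 kb 7 and 2; the 50% overlap gave the main counts by construction.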
